A study of Oryza sativa with 12 samples.

Results

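The effect of the Pbl6 segment was examined in rice that already carried the Prl5 segment. NIL-Prl5+Pbl6 was compared with NIL-Prl5, with 3 libraries of each line, chosen by the line named in the sample titles. These are 6 of the 12 RNA-seq libraries of the study, which were made from young panicles at the 2-mm stage. Koshihikari is a japonica rice cultivar. NIL-Prl5 is a near-isogenic line with the ST-1 allele of Prl5 in the Koshihikari background, and NIL-Prl5+Pbl6 carries the ST-1 alleles of Prl5 and of Pbl6. The remaining 6 libraries are from Koshihikari and from NIL-Pbl6, which has the ST-1 allele of Pbl6 alone. The lines come from repeated backcrossing of ST-1 to Koshihikari and were selected with markers, so that each carries an introgressed piece of chromosome with neighbouring genes and not a single changed gene. Plants were grown in a paddy field. The study states for its experiments in general that they had biological replicates. The hour of collection and the plants behind each library are not given in the sources used here, and the p-values below measure the spread between these libraries.

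Pbl6 is the gene APO1, which encodes an F-box protein that maintains the inflorescence meristem of rice and is related to UFO of Arabidopsis. Prl5 encodes the gibberellin 20-oxidase GA20ox4, an enzyme that makes precursors of the growth hormone gibberellin. In the young panicle the inflorescence meristem produces primary branches, whose growth depends on cell division and later on cell elongation, under the influence of auxin, cytokinin and gibberellin. The plant circadian clock sets daily rhythms in many genes of photosynthesis, metabolism and stress protection, with LHY in morning phase and GIGANTEA and FKF1 in the later part of the day.

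Total counts ranged from 18844291 to 31760529 in the NIL-Prl5 libraries and from 18851311 to 26873997 in those of NIL-Prl5+Pbl6. On the first principal component of log2 cpm (edgeR's normalized counts, scaled to library size), which held 53.9% of the variance over 17763 transcripts, NIL-Prl5 replicates 1 and 3 lay at 37.4 and 41.0 and stood apart from all the other libraries. NIL-Prl5 replicate 2 lay at 13.0, near Koshihikari replicate 2 at 17.6, while the NIL-Prl5+Pbl6 libraries lay between -21.3 and -12.6. Results that depend on single libraries are therefore also given without them. Inflorescence regulators such as OSH15 and MADS-box transcripts were present in every library. The 5 floral organ MADS transcripts that mark the stage of the panicle summed to 344 to 398 cpm in NIL-Prl5. They summed to 322 to 363 cpm in NIL-Prl5+Pbl6, with overlap, and to 270 to 319 cpm in Koshihikari. All 5 had a negative fold change in NIL-Prl5+Pbl6 against NIL-Prl5. None passed the edgeR test (1 was lower at an unadjusted P below 0.05, and none passed by DESeq2), while 3 were lower without NIL-Prl5 replicate 2. The 41 loci described as pollen or anther transcripts, as markers of other tissue, summed to 1110 to 1112 cpm in NIL-Prl5 and to 980 to 1120 cpm in NIL-Prl5+Pbl6. A single Ole e I family transcript, Os10t0371000-01, held 506.6 to 525.5 cpm and 409.3 to 497 cpm of these, so the sums say little about the other loci. Of the 41 loci, 3 were higher and 6 lower, with 2, 3 and 3 lower without NIL-Prl5 replicate 1, NIL-Prl5+Pbl6 replicate 2 and NIL-Prl5+Pbl6 replicate 3. The part of stage and tissue composition in the results was not tested.

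Adding the Pbl6 segment to NIL-Prl5 was accompanied by many small differences. Of 31643 transcripts tested with edgeR's quasi-likelihood test, 8021 (25.3%) had a Benjamini-Hochberg adjusted p below 0.05, with 4181 higher (13.2%) and 3840 lower (12.1%) in NIL-Prl5+Pbl6. The median size of the change among them was 0.52 on the log2 scale. A change of at least 2-fold was found for 956 of these transcripts, 260 higher and 696 lower. At an unadjusted P below 0.05, the threshold given in the study, 11992 transcripts (37.9%) passed. The 3 libraries of one line lay wholly above those of the other for 13125 of all transcripts tested (41.5%) and for 7687 of the 8021. Counted with 1 transcript for each locus, 6381 of 25551 loci (25%) passed, 3238 of them higher (12.7%) and 3143 lower (12.3%). These shares are the background against which the counts of the gene groups below are read.

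The number of transcripts that passed depended on which NIL-Prl5 library was present. Without NIL-Prl5 replicate 1 it was 3883, and without NIL-Prl5 replicate 3 it was 4185. Without NIL-Prl5 replicate 2, the library of that line nearest to NIL-Prl5+Pbl6, it was 11158. Without NIL-Prl5+Pbl6 replicates 1, 2 or 3 it was 5959, 5718 and 5053. Of the 8021 transcripts, 48% still passed without NIL-Prl5 replicate 1 and 51.4% without NIL-Prl5 replicate 3. All 8021 kept their direction with each of the 6 libraries left out. For the 7687 without overlap this was all but fixed beforehand, since the lines stay separated whichever library is removed.

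**Figure D1:**
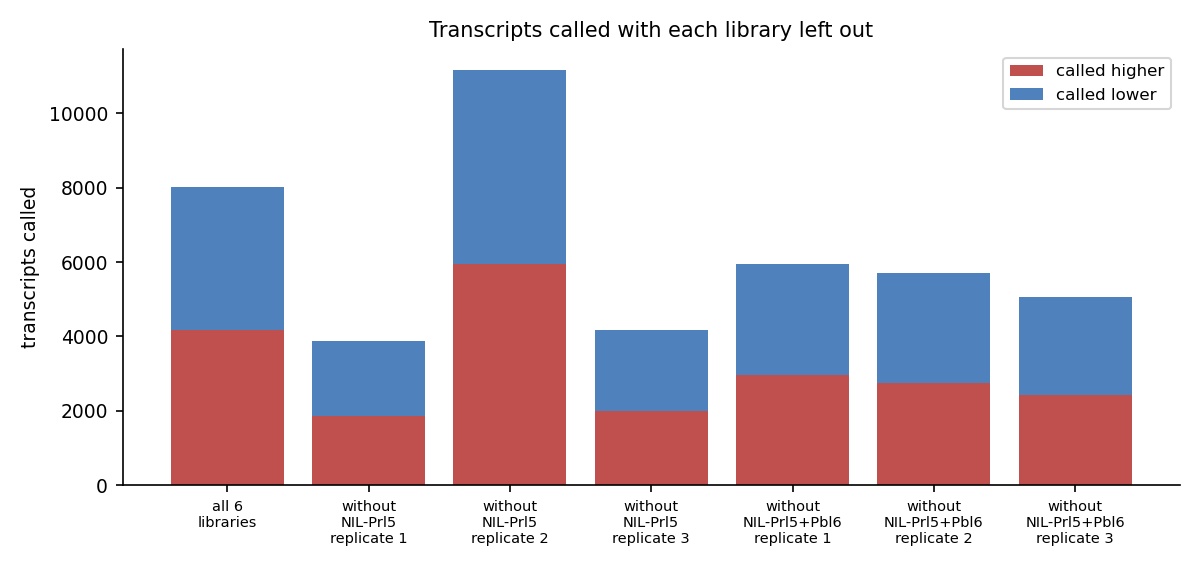
Number of transcripts that passed in NIL-Prl5+Pbl6 against NIL-Prl5 (vertical axis; adjusted p below 0.05), split into higher and lower, with all 6 libraries and with each library left out (horizontal axis). The number falls from 8021 to 3883 without NIL-Prl5 replicate 1 and rises to 11158 without NIL-Prl5 replicate 2.

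Neither of the targeted genes, APO1 and GA20ox4, passed the test. APO1 (Os06t0665400-01, chromosome 6) was at 1.69, 1.84 and 1.39 cpm in NIL-Prl5 and at 1.72, 1.21 and 0.890 cpm in NIL-Prl5+Pbl6. The ranges overlapped, and the log2 fold change was -0.37 (standard error 0.275, adjusted p = 0.349). GA20ox4 (Os05t0421900-00, chromosome 5), whose ST-1 allele is in both lines, was at 3.01, 2.86 and 2.72 cpm in NIL-Prl5 and at 4.78, 3.97 and 2.92 cpm in NIL-Prl5+Pbl6. The lowest NIL-Prl5+Pbl6 library lay within the NIL-Prl5 range, and the log2 fold change was 0.45 (standard error 0.203, adjusted p = 0.12). Exact two-sided permutation tests gave p = 0.3 for APO1 and p = 0.2 for GA20ox4, where 3 libraries against 3 allow no p below 0.1. Both transcripts were rare, with 18 to 52 reads per library for APO1 and 55 to 105 for GA20ox4. Among APO1 and the 25 tested loci on each side of it (51 loci), chosen without knowledge of where the segment ends, 4 were higher and 13 lower (33.3% together, beside the 25% over all loci). The number lower was 7 without NIL-Prl5 replicate 3, and the number higher was 6 without NIL-Prl5 replicate 2, 1 without NIL-Prl5 replicate 3 and 0 without any of the other libraries. GA20ox4 passed the edgeR test only when NIL-Prl5+Pbl6 replicate 3 was left out. In bulk tissue such as this, fewer cells that express a gene and less RNA per cell cannot be told apart.

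The circadian clock gave some of the sharpest differences. LHY (Os08t0157600-01), a MYB transcription factor of the clock's morning loop, was at 194, 196 and 196 cpm in NIL-Prl5 and at 516, 445 and 501 cpm in NIL-Prl5+Pbl6. All 3 double-line libraries were well above the NIL-Prl5 libraries, which hardly differed from each other, and the log2 fold change was 1.32 (standard error 0.102, adjusted p = 1.07e-06). GIGANTEA (Os01t0182600-03), which links the clock to flowering, was at 186, 203 and 189 cpm in NIL-Prl5 and at 50.9, 50.2 and 56.0 cpm in NIL-Prl5+Pbl6. It was lower in every double-line library, with a log2 fold change of -1.88 (standard error 0.098, adjusted p = 2.59e-08).

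The transcript described as similar to FKF1 (Os11t0547000-01), a blue-light receptor F-box protein that works with GIGANTEA in Arabidopsis, was at 21.5, 16.2 and 17.6 cpm in NIL-Prl5 and at 3.69, 4.08 and 4.89 cpm in NIL-Prl5+Pbl6. The groups were far apart, and the log2 fold change was -2.12 (standard error 0.15, adjusted p = 4.49e-07). Of the 6 clock loci listed, LHY rose and GIGANTEA and FKF1 fell, and this count was 1 higher and 2 lower with every single library left out. The other clock loci did not pass. PRR73 (Os03t0284100-01), a pseudo-response regulator, had a log2 fold change of -0.20 (adjusted p = 0.171), and the listed ELF3 locus (Os06t0142600-01), of the clock's evening complex, had -0.12 (adjusted p = 0.462). The response regulator Os07t0695100-01 had 0.04 (adjusted p = 0.817).

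Among 15 loci whose descriptions carry clock words, these 6 included, 2 were higher and 7 lower, with a median log2 fold change of -0.20. The second locus described as LHY (Os04t0583900-01) was at 5.96, 4.81 and 6.12 cpm in NIL-Prl5 and at 9.82, 8.16 and 10.6 cpm in NIL-Prl5+Pbl6, with no overlap and a log2 fold change of 0.76 (adjusted p = 0.00266). The second locus described as similar to ELF3 (Os01t0566050-00), named after its values were seen, was at 10.3, 9.51 and 10.4 cpm and at 4.31, 4.65 and 4.50 cpm. It was lower in all 3 double-line libraries, by 1.16 on the log2 scale (adjusted p = 3.7e-05). The second locus described as similar to FKF1 (Os06t0694000-01) was more abundant, at 98.9, 98.9 and 101 cpm and at 109, 117 and 111 cpm. It had a log2 fold change of 0.17 and did not pass (adjusted p = 0.171). The transcript similar to TIMING OF CAB 1 (Os02t0148500-01) had -0.05 (adjusted p = 0.751). A transcript similar to the clock coupling factor ZGT (Os05t0494600-01) fell from 4.48, 2.72 and 4.37 cpm to 0.260, 0.756 and 0.445 cpm, by 2.90 on the log2 scale (adjusted p = 3e-05). The other ZGT-like loci, Os01t0802600-00, Os07t0598200-01 and Os03t0427000-01, had log2 fold changes of -1.13, -0.61 and -0.20. Their adjusted p were 0.00172, 0.00228 and 0.2, so the last did not pass. The 2 transcripts of receiver-domain response regulators with the largest decreases, Os02t0618200-01 and Os09t0532400-02, fell by 1.33 and 1.24 on the log2 scale.

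**Figure D2:**
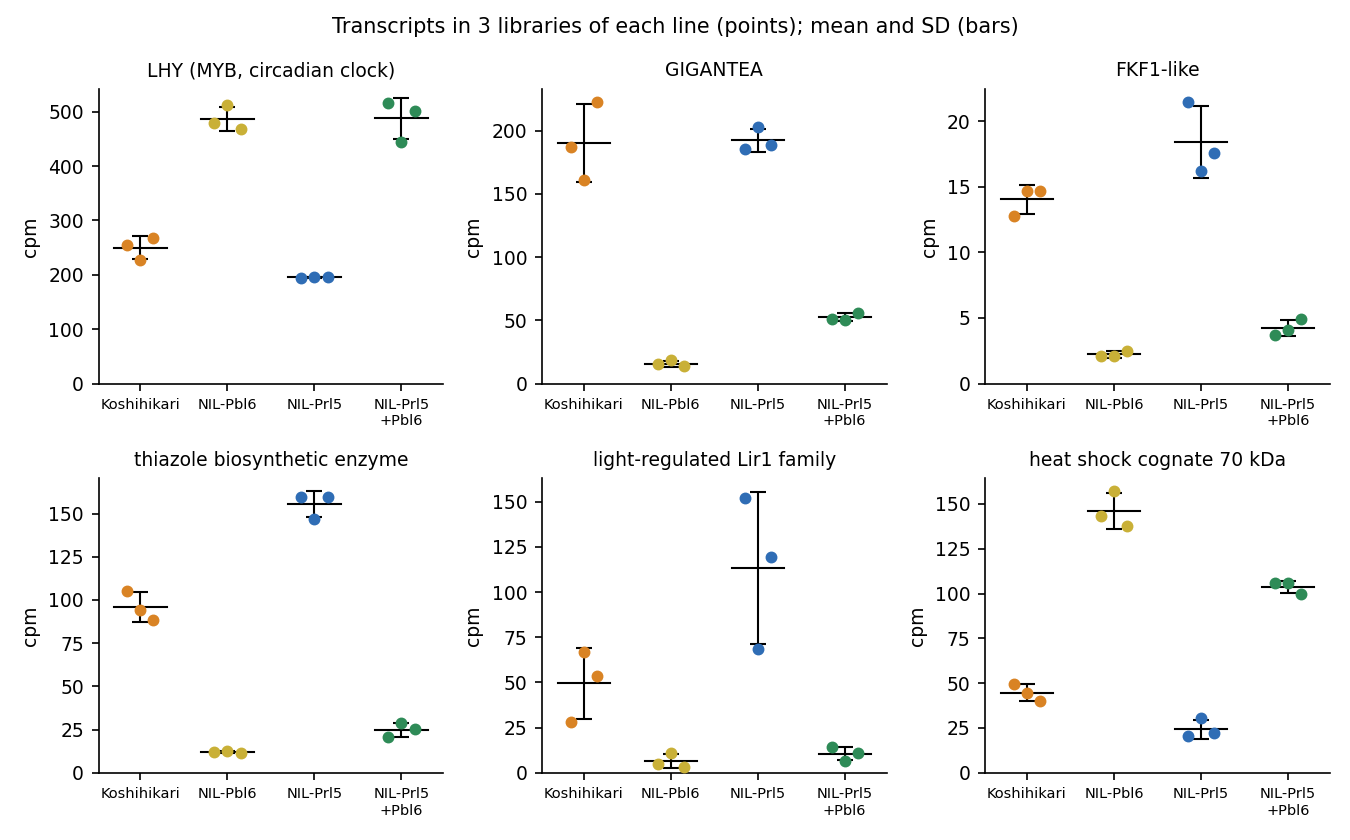
Level in cpm (vertical axes, from 0) of 6 transcripts in the 3 libraries of each line (points), with the mean (line) and SD (error bar). GIGANTEA lies between 186 and 203 cpm in NIL-Prl5 and between 50.2 and 56.0 cpm in NIL-Prl5+Pbl6, and LHY lies between 194 and 196 cpm and between 445 and 516 cpm.

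The thiamine pathway makes the cofactor thiamine diphosphate, and its thiazole ring is made by the THI1 type of enzyme in the plastid. The transcript of that enzyme (Os07t0529600-01) was at 160, 147 and 160 cpm in NIL-Prl5 and at 20.6, 28.8 and 25.5 cpm in NIL-Prl5+Pbl6. Every double-line library was far below NIL-Prl5, and the log2 fold change was -2.63 (standard error 0.12, adjusted p = 6.71e-09). The transcript similar to thiC (Os03t0679700-02), which makes the pyrimidine moiety, was at 5.74, 5.87 and 5.57 cpm and at 3.33, 3.02 and 3.41 cpm. It was lower in all 3 double-line libraries, by 0.82 on the log2 scale (adjusted p = 0.00236). Both calls held with every library left out in turn. Of the other 4 thiamine loci, the thiamin pyrophosphokinase Os05t0367400-01, which makes the diphosphate, was at 2.19, 1.17 and 1.55 cpm and at 3.17, 2.42 and 2.42 cpm. Its log2 fold change was 0.73 (adjusted p = 0.0431), and the call was lost by DESeq2 and with any library but NIL-Prl5 replicate 1 left out. The pyrophosphokinases Os01t0356500-01 and Os01t0931400-02 had log2 fold changes of 0.09 and -0.27 (adjusted p = 0.76 and 0.219), and the hydroxyethylthiazole kinase family transcript Os01t0363600-01 had -0.06 (adjusted p = 0.852). Of the nitrate genes listed beside them, ferredoxin-nitrite reductase (Os01t0357100-01) fell by 0.39 on the log2 scale (adjusted p = 0.0312), which was lost without NIL-Prl5 replicate 1, NIL-Prl5 replicate 3 or NIL-Prl5+Pbl6 replicate 2, and nitrate reductase (Os08t0468100-01) had a log2 fold change of 0.57 (adjusted p = 0.0733).

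Transcripts of the photosynthetic apparatus were lower in NIL-Prl5+Pbl6. Of 46 loci described as photosystem, chlorophyll-binding or RuBisCO small subunit proteins, 20 were lower and 2 higher, with a median log2 fold change of -0.52 against 0 over all loci. They summed to 328, 251 and 327 cpm in NIL-Prl5 and to 213, 200 and 185 cpm in NIL-Prl5+Pbl6. The sums did not overlap, and NIL-Prl5 replicate 2 was the nearest of its line to NIL-Prl5+Pbl6. These transcripts also mark green tissue, and Koshihikari summed to 211, 273 and 189 cpm. Whether the share of green tissue differed was not tested. The number of lower loci was 13 without NIL-Prl5 replicate 1 and 13 without NIL-Prl5+Pbl6 replicate 3.

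Within this group, subunit XI of photosystem I (Os12t0420400-02) was at 9.01, 3.96 and 7.12 cpm in NIL-Prl5 and at 2.03, 1.47 and 1.78 cpm in NIL-Prl5+Pbl6, a fall by 1.92 on the log2 scale (adjusted p = 0.000224). PsbQ of the oxygen-evolving complex of photosystem II (Os07t0105600-01) fell by 1.81 (adjusted p = 4.62e-05), and the photosystem II 5 kD protein (Os02t0581100-01) by 1.495 on that scale (adjusted p = 7.03e-05). In the other direction, Psb28, a photosystem II assembly protein (Os01t0938100-01), was at 1.37, 1.49 and 2.04 cpm and at 4.003, 3.10 and 3.16 cpm, a log2 fold change of 1.04 (adjusted p = 0.0041). Oxygen-evolving enhancer protein 3-2 (Os07t0544800-01), named after its values were seen, was at 30.6, 23.5 and 28.2 cpm and at 11.1, 11.3 and 11.6 cpm, and fell by 1.27 on the log2 scale (adjusted p = 5.97e-06).

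The light-regulated Lir1 family transcript (Os01t0102900-01), whose protein holds a ferredoxin reductase at the thylakoid, was at 152, 68.7 and 119 cpm in NIL-Prl5 and at 14.1, 6.61 and 10.97 cpm in NIL-Prl5+Pbl6. The spread within each line was wide, but the groups did not overlap, and it fell by 3.44 on the log2 scale (standard error 0.266, adjusted p = 1.1e-06). Among 19 B-box and CONSTANS-like loci, a family of zinc finger regulators of light and day-length responses, 3 were lower and 1 higher. Os09t0509700-01 and Os01t0202500-01 fell by 2.14 (adjusted p = 8.09e-05) and 1.94 (adjusted p = 9.15e-06) on the log2 scale. Os02t0606200-01 was at 38.0, 25.8 and 39.2 cpm in NIL-Prl5 and at 79.0, 73.4 and 56.7 cpm in NIL-Prl5+Pbl6, a log2 fold change of 1.02 (adjusted p = 0.000333). The number lower was 7 without NIL-Prl5 replicate 2. The median of this family was -0.18 and changed sign, to 0.06, without NIL-Prl5 replicate 1.

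Heat shock proteins and chaperones, which fold proteins and keep them from aggregating, changed in both directions. Of 217 such loci, 53 were higher (24.4%) and 21 lower (9.68%), and their median log2 fold change was 0.03. The number higher was 35 without NIL-Prl5 replicate 1 and 35 without NIL-Prl5 replicate 3, and the number lower was 34 without NIL-Prl5 replicate 2. Of the 21 loci of the Hsp70 family, ATP-dependent chaperones, 11 were higher and 1 lower, with a median of 0.41. With single libraries left out, 9 to 13 Hsp70 loci were higher.

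The cognate Hsp70 (Os05t0460000-01) was at 20.5, 30.4 and 22.1 cpm in NIL-Prl5 and at 106, 106 and 99.7 cpm in NIL-Prl5+Pbl6. All 3 double-line libraries were far above the highest NIL-Prl5 library, and the log2 fold change was 2.08 (standard error 0.128, adjusted p = 1.17e-07). Other Hsp70 transcripts that rose were Os03t0277300-01 by 1.51, Os03t0276500-01 by 1.48 and Os01t0840100-01 by 1.46 on the log2 scale (adjusted p = 0.0045, 6.79e-06 and 1.34e-06). HSP101 (Os05t0519700-02), a disaggregase of heat-stressed cells and named after its values were seen, was at 6.99, 11.99 and 10.3 cpm and at 26.8, 23.5 and 27.2 cpm, a log2 fold change of 1.38 (adjusted p = 2.54e-05).

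The summed level of the Hsp70 family did not follow these members. It was 4649, 4273 and 5016 cpm in NIL-Prl5 and 4447, 4816 and 4385 cpm in NIL-Prl5+Pbl6, with overlap. DnaJ proteins, the co-chaperones of Hsp70, divided evenly, with 15 of 99 loci higher and 13 lower and a median of -0.01. Of them, 9 were higher without NIL-Prl5 replicate 1 and 9 without NIL-Prl5 replicate 3, and the number lower was 20 without NIL-Prl5 replicate 2. Os03t0300600-01, similar to DnaJ, was at 41.0, 30.9 and 39.96 cpm in NIL-Prl5 and at 6.60, 8.28 and 6.87 cpm in NIL-Prl5+Pbl6, a fall by 2.35 on the log2 scale (adjusted p = 5.76e-08). The transcript similar to heat shock transcription factor 29 (Os01t0733200-01) was at 10.4, 4.88 and 8.12 cpm and at 0.416, 0.265 and 0.494 cpm, and fell by 4.32 on the log2 scale (adjusted p = 1.07e-06). Of 25 small heat shock proteins, 1 was higher and 1 lower, with 5 lower without NIL-Prl5 replicate 1 and 3 lower without NIL-Prl5 replicate 2.

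Genes of the cell wall were more often higher than lower. Of 135 loci described as expansins, cellulose synthases or enzymes of pectin, xyloglucan and arabinogalactan, 27 were higher (20%) and 7 lower (5.19%), with a median log2 fold change of 0.18. The number higher was 15 without NIL-Prl5 replicate 1, 43 without NIL-Prl5 replicate 2 and 15 without NIL-Prl5 replicate 3, and the number lower was 4 without NIL-Prl5 replicate 1 and 4 without NIL-Prl5+Pbl6 replicate 3. Cellulose synthases spin cellulose at the plasma membrane, though a group made from descriptions may also hold cellulose synthase-like proteins, which were not told apart. Loci of this group accounted for 10 of the increases, among 25 loci with a median of 0.37. None was lower by the edgeR test, at an unadjusted P below 0.05 or by DESeq2. Their sum was 509, 604 and 494 cpm in NIL-Prl5 and 700, 742 and 780 cpm in NIL-Prl5+Pbl6. The sums did not overlap, and Koshihikari libraries lay on both sides of the gap between them, at 761, 578 and 731 cpm. The number of cellulose synthases higher was 6 without NIL-Prl5 replicate 1, 6 without NIL-Prl5 replicate 3 and 6 without NIL-Prl5+Pbl6 replicate 3.

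Cellulose synthase-8 (Os07t0252400-01) was at 26.3, 33.3 and 23.7 cpm in NIL-Prl5 and at 49.2, 46.8 and 58.5 cpm in NIL-Prl5+Pbl6, a log2 fold change of 0.89 (adjusted p = 0.000276). The cellulose synthase family transcript Os08t0160500-01 was at 11.04, 14.0 and 9.35 cpm and at 23.6, 29.9 and 24.96 cpm, a log2 fold change of 1.19 (adjusted p = 5.66e-05). Both rose in all 3 double-line libraries beyond the range of NIL-Prl5. Polygalacturonases, which cut pectin and loosen the wall between cells, showed larger changes from low levels, with 5 of 13 loci higher and 1 lower. Polygalacturonase PG2 (Os01t0636500-01) was at 3.61, 3.29 and 2.39 cpm and at 11.7, 9.49 and 12.7 cpm, a log2 fold change of 1.88 (adjusted p = 5.86e-06). The pectin lyase fold transcript Os05t0542900-01 was at 35.9, 33.7 and 36.8 cpm and at 16.7, 17.3 and 16.9 cpm, and fell by 1.06 on the log2 scale (adjusted p = 5.48e-06).

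Kinesins, motor proteins taken here by their descriptions whatever their role in the cell, were more often higher than lower. Of 39 kinesin loci, which move along microtubules, 25 were higher (64.1%) and 2 lower, with a median log2 fold change of 0.40. Their sum was 1362, 1653 and 1362 cpm in NIL-Prl5 and 1766, 1922 and 2072 cpm in NIL-Prl5+Pbl6. The sums did not overlap, and NIL-Prl5 replicate 2 lay nearest to NIL-Prl5+Pbl6. The sums in Koshihikari were 1873, 1456 and 1947 cpm, so that NIL-Prl5 replicates 1 and 3 were also lower than every Koshihikari library. The number of kinesins higher was 13 without NIL-Prl5 replicate 1 and 13 without NIL-Prl5+Pbl6 replicate 3. The kinesin heavy chain Os01t0513900-01 was at 41.2, 62.6 and 39.8 cpm and at 72.5, 77.0 and 86.1 cpm, a log2 fold change of 0.71 (adjusted p = 0.00307). Tubulins, the subunits of the microtubule, had 1 of 15 loci higher and 2 lower and a median of 0.08, and with 4 higher without NIL-Prl5 replicate 2.

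Of 76 loci for cyclins and DNA replication, 15 were higher (19.7%) and 4 lower (5.26%), with a median of 0.07. The number higher was 6 without NIL-Prl5 replicate 1, 7 without NIL-Prl5 replicate 3 and 8 without NIL-Prl5+Pbl6 replicate 3, and the number lower was 2, 10 and 1 without NIL-Prl5 replicates 1, 2 and 3. A CDT1-like licensing factor of DNA replication (Os04t0185100-01) was at 14.5, 19.5 and 13.4 cpm in NIL-Prl5 and at 25.3, 30.4 and 29.4 cpm in NIL-Prl5+Pbl6, a log2 fold change of 0.84 (adjusted p = 0.000632). Cyclin-D2-1 (Os09t0382300-00), of the entry into the cell cycle, also rose by 0.84 on the log2 scale (adjusted p = 0.00181). Among 8 loci for the MCM helicase and ribonucleotide reductase, 5 were higher and 1 lower. That number was 2 without NIL-Prl5 replicate 1, 3 without NIL-Prl5 replicate 3 and 3 without NIL-Prl5+Pbl6 replicate 3. Ribonucleotide reductase (Os06t0168600-01), which makes deoxyribonucleotides and was named after its values were seen, was at 47.4, 68.1 and 48.4 cpm and at 72.3, 84.3 and 88.5 cpm, with a log2 fold change of 0.58 (adjusted p = 0.00571).

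Core histones, which are made in the S phase, were not raised. Of 47 loci none was higher and 3 were lower (6.38%) at an adjusted p below 0.05 by the edgeR quasi-likelihood test, and 41 had a negative fold change. None was higher at an unadjusted P below 0.05 or by DESeq2 either. Over the alternative tests the number lower was between 1 and 14, and over the fits with a library left out between 0 (without NIL-Prl5 replicate 3 or NIL-Prl5+Pbl6 replicate 3) and 7 (without NIL-Prl5 replicate 2), with 1 without NIL-Prl5 replicate 1 and 1 without NIL-Prl5+Pbl6 replicate 1. DNA and RNA helicases, which unwind nucleic acids in many processes, were higher in 36 of 111 loci (32.4%) and lower in 5, with a median of 0.23. The number higher was 16 without NIL-Prl5 replicate 1, 55 without NIL-Prl5 replicate 2, 16 without NIL-Prl5 replicate 3, 23 without NIL-Prl5+Pbl6 replicate 2 and 17 without NIL-Prl5+Pbl6 replicate 3, and the number lower was 2 without NIL-Prl5 replicate 1, 9 without NIL-Prl5 replicate 2 and 3 without NIL-Prl5+Pbl6 replicate 1. The Mi-2-like chromatin remodeller Os07t0497000-01 was at 51.6, 72.9 and 50.8 cpm and at 102, 103 and 128 cpm, a log2 fold change of 0.93 (adjusted p = 0.00035).

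Ribosomal protein transcripts were lower in NIL-Prl5+Pbl6. Of 169 loci for proteins of the cytosolic ribosome, 61 were lower (36.1%) and none was higher by the edgeR quasi-likelihood test, and 152 had a negative fold change. At an unadjusted P below 0.05 it was 1 that was higher, and by DESeq2 none. The median was small, -0.26 on the log2 scale. Their sum was 48683, 46083 and 49586 cpm in NIL-Prl5 and 41746, 42116 and 35768 cpm in NIL-Prl5+Pbl6. The 2 lines did not overlap. The sums in Koshihikari were 39797, 48151 and 37751 cpm, on both sides of the gap between them. The number lower was 22 without NIL-Prl5 replicate 1, 23 without NIL-Prl5 replicate 3 and 32 without NIL-Prl5+Pbl6 replicate 3. Without NIL-Prl5 replicate 2 it was 83, and 4 were then higher. L36-1 of the large subunit (Os05t0459900-01) was at 687, 639 and 835 cpm in NIL-Prl5 and at 469, 439 and 391 cpm in NIL-Prl5+Pbl6, a fall by 0.74 on the log2 scale (standard error 0.121, adjusted p = 0.000831).

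Proteins of the ribosomes of plastids and mitochondria followed the same direction, with 28 of 59 loci lower (47.5%) and 2 higher, and a median of -0.35. They summed to 1786, 1607 and 1824 cpm in NIL-Prl5 and to 1425, 1419 and 1292 cpm in NIL-Prl5+Pbl6, without overlap. The number lower was 17 without NIL-Prl5 replicate 1 and 15 without NIL-Prl5 replicate 3. The transcript similar to 50S ribosomal protein L18 (Os03t0828100-02) was at 30.7, 23.4 and 31.4 cpm and at 16.1, 14.2 and 13.3 cpm, and fell by 0.97 on the log2 scale (adjusted p = 0.000118).

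**Figure D3:**
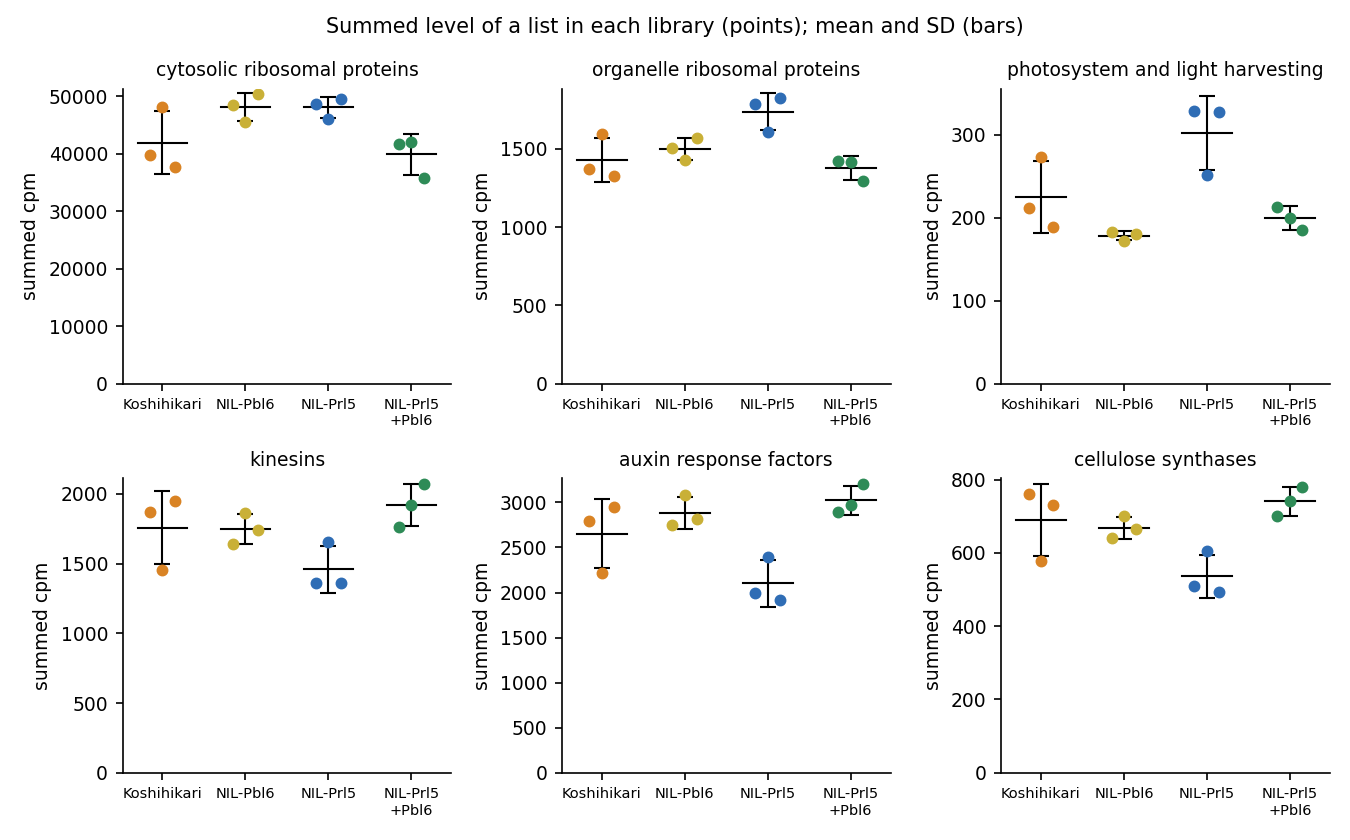
Summed level in cpm (vertical axes, from 0) of 6 groups of loci in the 3 libraries of each line (points), with the mean (line) and SD (error bar). In all 6 groups NIL-Prl5 and NIL-Prl5+Pbl6 do not overlap, and in each of them NIL-Prl5 replicate 2 is the library of its line nearest to NIL-Prl5+Pbl6.

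Among auxin genes, the transcription factors that carry the response, the carriers that move the hormone and the flavin monooxygenases of its synthesis were higher in larger shares than the 12.7% over all loci. Of 121 auxin loci, 33 were higher (27.3%) and 13 lower (10.7%). The number higher was 17 without NIL-Prl5 replicate 1, 19 without NIL-Prl5 replicate 3 and 21 without NIL-Prl5+Pbl6 replicate 3, and the number lower was 7 without NIL-Prl5 replicate 1 and 6 without NIL-Prl5 replicate 3. Auxin response factors, which bind the promoters of auxin-responsive genes, were higher in 15 of 22 loci (68.2%) and lower in 1, with a median of 0.43. They summed to 1998, 2396 and 1913 cpm in NIL-Prl5 and to 2896, 2970 and 3200 cpm in NIL-Prl5+Pbl6. The sums did not overlap, and Koshihikari was at 2792, 2217 and 2953 cpm. The number of response factors higher was 9 without NIL-Prl5 replicate 1 and 9 without NIL-Prl5+Pbl6 replicate 3. Auxin response factor 2 (Os04t0442000-01) was at 112, 143 and 101 cpm and at 189, 192 and 216 cpm, a log2 fold change of 0.75 (adjusted p = 0.000847).

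Of 19 auxin transport loci, 9 were higher and 1 lower, with a median of 0.43, and 5 were higher without NIL-Prl5 replicate 1. Of 6 flavin monooxygenases of auxin biosynthesis, 3 were higher, with a median of 0.81. The rare transcript Os04t0128900-01 was at 0.164, 0.354 and 0 cpm in NIL-Prl5 and at 1.35, 0.832 and 0.741 cpm in NIL-Prl5+Pbl6, with a fitted log2 fold change of 2.48 (adjusted p = 0.00768) that was 3.84 without NIL-Prl5 replicate 2. Os01t0732700-01 was at 0.983, 1.84 and 1.13 cpm and at 5.25, 4.42 and 5.39 cpm, with no overlap and a log2 fold change of 1.90 (adjusted p = 6.56e-05). The 2 dormancy-associated, auxin-repressed type transcripts named, Os09t0437500-01 and Os03t0342900-02, fell by 2.59 and 1.08 on the log2 scale (adjusted p = 1.07e-06 and 0.000276). Os09t0437500-01 was at 70.6, 35.6 and 59.0 cpm in NIL-Prl5 and at 8.27, 8.504 and 10.5 cpm in NIL-Prl5+Pbl6.

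Cytokinin is perceived by histidine kinases, which pass phosphate to response regulators. Of the 4 cytokinin histidine kinase loci, 3 were higher, with a median of 0.70. The histidine kinase Os03t0717700-01 was at 16.6, 20.9 and 14.7 cpm in NIL-Prl5 and at 32.3, 30.4 and 35.7 cpm in NIL-Prl5+Pbl6, a log2 fold change of 0.91 (adjusted p = 0.000195). In the wider group of 34 cytokinin and phosphorelay loci, 5 were higher and 4 lower (26.5% together), close to the share over all loci. One of the 5, Os05t0521300-04, was the most abundant transcript of a phosphotransfer protein locus but is itself described as related to a kinesin motor, and it is also among the kinesins. The 4 lower include the receiver-domain response regulators Os02t0618200-01 and Os09t0532400-02, given with the clock above. The clock-listed Os07t0695100-01 is among the 34 too, so the group is not of cytokinin genes alone.

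**Figure D4:**
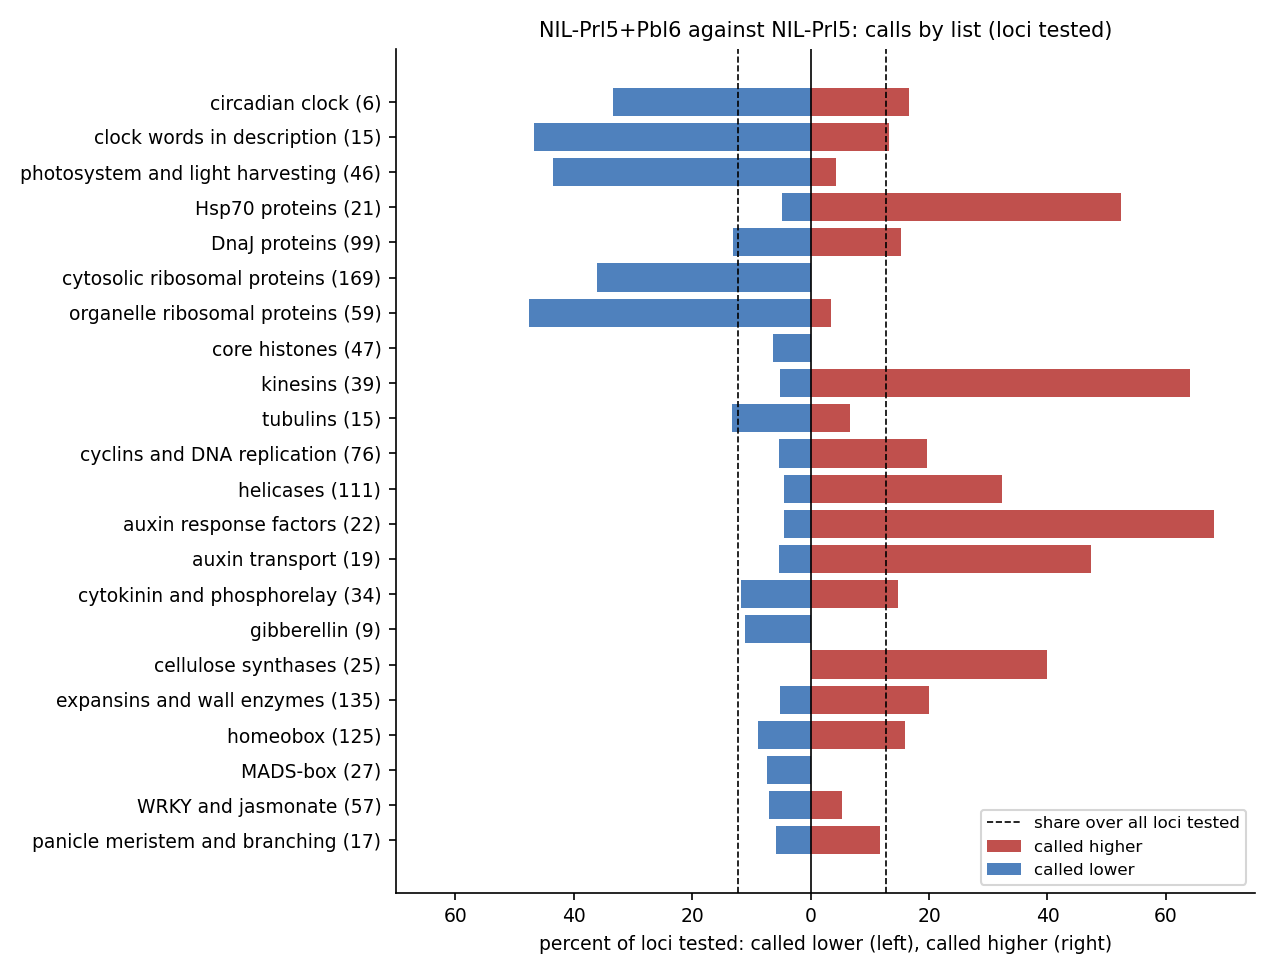
Percent of the loci tested in each gene group (number in brackets) that were lower (left) or higher (right) in NIL-Prl5+Pbl6 than in NIL-Prl5 at an adjusted p below 0.05. Dashed lines mark the share over all loci, 12.3% lower and 12.7% higher, and kinesins reach 64.1% and auxin response factors 68.2% higher. Both of these groups were added to a first set of groups, and the wider auxin group, not drawn, had 27.3% higher.

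Regulators of panicle form were a small group, with members that changed in both directions. Of 17 loci for meristem and branching genes that could be tested, 2 were higher and 1 lower, with a median of 0.08. Together this was 17.6%, beside the 25% over all loci, and so few loci cannot set these shares apart. OSH15 (Os07t0129700-01), a KNOX homeobox gene of the shoot meristem and internode, was at 99.1, 124 and 80.3 cpm in NIL-Prl5 and at 146, 154 and 137 cpm in NIL-Prl5+Pbl6. It was higher in all 3 double-line libraries, by 0.53 on the log2 scale (adjusted p = 0.0093). CYP78A11 (Os10t0403000-00), the cytochrome P450 of the PLASTOCHRON1 type that times organ initiation, was at 308, 316 and 190 cpm and at 543, 334 and 424 cpm, with a log2 fold change of 0.68 (adjusted p = 0.0142) that did not pass without NIL-Prl5 replicate 3, without NIL-Prl5+Pbl6 replicate 1 or by DESeq2. The squamosa promoter-binding-like factor for panicle branching (Os08t0509600-01) was at 245, 151 and 205 cpm and at 174, 86.3 and 126 cpm. These ranges overlapped, and the decrease by 0.64 on the log2 scale (adjusted p = 0.0299) was lost without NIL-Prl5 replicates 1 or 3, without NIL-Prl5+Pbl6 replicates 2 or 3 and by DESeq2.

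With libraries left out, the number of these 17 loci that were higher was 4 without NIL-Prl5 replicate 2, 1 without NIL-Prl5 replicate 3 and 1 without NIL-Prl5+Pbl6 replicate 1, and the number lower was 2 without NIL-Prl5 replicate 2. The LEAFY-like transcript (Os04t0598300-00), whose protein works with APO1 in rice, was at 109, 138 and 92.7 cpm in NIL-Prl5 and at 147, 140 and 143 cpm in NIL-Prl5+Pbl6. The ranges did not overlap, but the log2 fold change of 0.34 did not pass (adjusted p = 0.0554). The KNOX genes OSH6 (Os01t0302500-01) and OSH71 (Os05t0129700-01), with 0.03 and 0.06, did not pass either (adjusted p = 0.831 and 0.673). The same was true of MADS14 (Os03t0752800-01) with -0.13, MADS15 (Os07t0108900-01) with 0.15 and MADS18 (Os07t0605200-01) with -0.28 (adjusted p = 0.372, 0.278 and 0.0617), which mark the turn of the meristem to flowering. The axillary-meristem bHLH factor Os01t0831000-01 had a log2 fold change of -0.14, the Monoculm1-like Os06t0610350-00 of -0.08 and the cytokinin dehydrogenase Os01t0197700-01 of 0.19 (adjusted p = 0.477, 0.803 and 0.621).

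Of 27 MADS-box loci, 2 were lower and none higher by the edgeR quasi-likelihood test (none higher at an unadjusted P below 0.05 or by DESeq2), while 24 had a negative fold change and the median was -0.18. One of the 24, Os07t0160100-02 (log2 fold change of -0.39, adjusted p = 0.122), is described as a YABBY protein and was counted because another transcript of its locus is described as MADS-box. Without NIL-Prl5 replicate 2 the number lower was 11, and without NIL-Prl5 replicates 1 or 3 or NIL-Prl5+Pbl6 replicate 2 it was 1. The floral organ MADS transcripts had a median of -0.18 too, and 3 of the 5 were lower without NIL-Prl5 replicate 2. MADS56 (Os10t0536100-01), related to the flowering integrator SOC1 of Arabidopsis, was at 32.5, 31.9 and 34.1 cpm in NIL-Prl5 and at 24.1, 26.0 and 24.6 cpm in NIL-Prl5+Pbl6, a fall by 0.40 on the log2 scale (adjusted p = 0.00705).

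Of 9 gibberellin loci tested, 1 changed. Gibberellin 20-oxidase 1 (Os03t0856700-01), which acts at the same step as GA20ox4, was at 32.7, 35.2 and 33.1 cpm in NIL-Prl5 and at 24.95, 20.9 and 18.6 cpm in NIL-Prl5+Pbl6. It was lower in every double-line library, by 0.65 on the log2 scale (standard error 0.112, adjusted p = 0.00116), and this held with each library left out. The 20-oxidase 2 transcript (Os01t0883800-01), the 3-beta-hydroxylase 2 transcript (Os01t0177400-01) and the transcript of the DELLA repressor OsGAI (Os03t0707600-01) had log2 fold changes of 0.33, -0.21 and 0.15 and did not pass (adjusted p = 0.319, 0.68 and 0.359). The transcripts for the gibberellin 2-oxidases, which inactivate the hormone, had 0.29 (Os01t0757200-01) and 0.13 (Os05t0158600-01), with adjusted p = 0.105 and 0.721. The early biosynthesis transcripts for ent-kaurene oxidase (Os06t0570100-01) and a kaurene synthase A (Os02t0278700-01) had -0.22 and -0.46 (adjusted p = 0.196 and 0.22). A transcript similar to DWARF3 of maize (Os06t0110000-01), a P450 of gibberellin synthesis there, had 0.27 (adjusted p = 0.235).

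Among other regulator families, homeobox loci lay near the background, and WRKY and jasmonate loci below the 25% over all loci. Of 125 homeobox and homeodomain-like loci, 20 were higher (16%) and 11 lower (8.8%). The number higher was 11 without NIL-Prl5 replicate 1 and 11 without NIL-Prl5 replicate 3, and the number lower was 5 without NIL-Prl5 replicate 1. The homeodomain-like transcript Os06t0728700-01 was at 18.0, 20.5 and 18.8 cpm in NIL-Prl5 and at 59.3, 57.2 and 61.3 cpm in NIL-Prl5+Pbl6. It had narrow groups far apart and a log2 fold change of 1.63 (standard error 0.097, adjusted p = 7.59e-08). In the other direction, Os07t0119300-01 and Os03t0764600-01 both fell by 1.62 on the log2 scale (adjusted p = 5.65e-06 and 8.94e-05). Of 57 WRKY and jasmonate loci, which respond to wounding and pathogens, 3 were higher and 4 lower (12.3% together), with 9 and 8 without NIL-Prl5 replicate 2, 1 and 2 without NIL-Prl5 replicate 1, and 1 higher without NIL-Prl5+Pbl6 replicate 3.

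The 10 transcripts with the largest increase and the 10 with the largest decrease were taken from those with no overlap between the lines and a mean of at least 50 counts in the higher line. An SNF2-related chromatin protein (Os02t0650800-00) was at 0.109, 0.389 and 0.162 cpm in NIL-Prl5 and at 4.78, 4.65 and 7.86 cpm in NIL-Prl5+Pbl6, a log2 fold change of 4.60 (adjusted p = 1.07e-06). A CACTA transposon protein (Os01t0186900-02) and its neighbour Os01t0186950-00 had 4.63 and 4.46, but the CACTA transcript ranged from 1.10 to 26.6 cpm within Koshihikari. A SOUL haem-binding protein (Os01t0850900-01) had 3.25 and the EF-hand calcium-binding protein CCD1-like Os06t0683400-02 had 2.39. The latter owed much to NIL-Prl5+Pbl6 replicate 2, at 13.4 cpm against 3.02 and 3.46 cpm in the other libraries of that line. The remaining increases, beside the cognate Hsp70, were in transcripts with no described function, Os06t0133400-01 (2.47), Os01t0281100-01 (2.25), Os04t0684900-02 (2.01) and Os04t0650750-00 (2.01).

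Among the decreases, the UspA domain transcript Os05t0355400-01, of the universal stress protein type, was at 45.2, 12.02 and 28.3 cpm in NIL-Prl5 and at 2.76, 1.13 and 1.83 cpm in NIL-Prl5+Pbl6, a fall by 3.93 on the log2 scale (adjusted p = 1.38e-05). A transcript similar to the RING-H2 finger protein ATL3C (Os01t0822800-01), a type of ubiquitin ligase, was at 3.61, 2.37 and 3.59 cpm and at 0.260, 0.302 and 0.346 cpm, and fell by 3.37 on the log2 scale (adjusted p = 5.77e-06). Within NIL-Prl5, replicate 2 had the lowest level of both. An ATPase inhibitor (Os02t0533800-01) fell by 3.42 (adjusted p = 6.83e-05), and a cytochrome P450 (Os03t0760200-01) fell by 3.31 on that scale, with NIL-Prl5 replicate 3 at 13.4 cpm and the other NIL-Prl5 libraries at 2.62 and 1.56 cpm. Other large decreases were in transcripts with no described function, Os06t0534900-00 (-4.47), Os03t0265900-01 (-4.07), Os05t0355450-01 (-3.57) and Os02t0674233-00 (-3.46).

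The effect of a Pbl6 segment without Prl5 can be followed in NIL-Pbl6 against Koshihikari, which shares no library with the comparison above. Whether NIL-Pbl6 and NIL-Prl5+Pbl6 carry the same piece of chromosome was not tested. In NIL-Pbl6 against Koshihikari, 2686 transcripts (8.49%) and 2087 loci (8.17%) passed. Koshihikari replicate 2 stood apart from the other 2 libraries of its line, and the number was 7326 without it, while the other left-out libraries gave between 1067 (NIL-Pbl6 replicate 1) and 1758 (Koshihikari replicate 1), with 1537 without Koshihikari replicate 3, 1219 without NIL-Pbl6 replicate 2 and 1279 without NIL-Pbl6 replicate 3. Both comparisons called 1081 transcripts, which is 13.5% of the calls with Prl5 and 40.2% of those without. Of these, 376 were higher in both, 668 were lower in both and 37 went in opposite directions. Over the tested transcripts, which are not independent, the log2 fold changes correlated with Pearson's r of 0.35 and Spearman's rho of 0.21.

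Transcripts that changed strongly had mostly the same direction in both backgrounds. Of the 956 with at least a 2-fold change, 813 (85%) had the same direction in NIL-Pbl6 against Koshihikari, compared with 55.6% of all transcripts tested. Of those lower by at least 2-fold, 300 passed in the other background in the same direction, and of those higher, 92. The log2 fold change of LHY (Os08t0157600-01) was 0.96 there, that of FKF1 (Os11t0547000-01) was -2.68, that of the thiazole enzyme (Os07t0529600-01) was -2.98, that of Lir1 (Os01t0102900-01) was -2.94 and that of the cognate Hsp70 (Os05t0460000-01) was 1.71. For the Hsp70 family 10 of 21 loci were higher in that background (background 3.17%), with a median of 0.34 beside 0.41 with Prl5. For the photosystem group 8 of 46 were lower (background 4.99%), with a median of -0.28 beside -0.52.

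The groups with small changes in many members did not share a direction in this way. In NIL-Pbl6 against Koshihikari 2 of 39 kinesins passed, both lower, with a median of -0.01 beside 0.40 with Prl5. The medians of the auxin response factors were -0.01 and 0.43, and those of the cellulose synthases -0.03 and 0.37. Of the cytosolic ribosomal proteins, 11 were higher and 1 lower without Prl5, with a median of 0.20 beside -0.26, and of the core histones 12 were higher, with 0.39 beside -0.12. In the sums of kinesins, auxin response factors and cellulose synthases, NIL-Prl5 replicates 1 and 3 lay below every other library of the study.

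**Figure D5:**
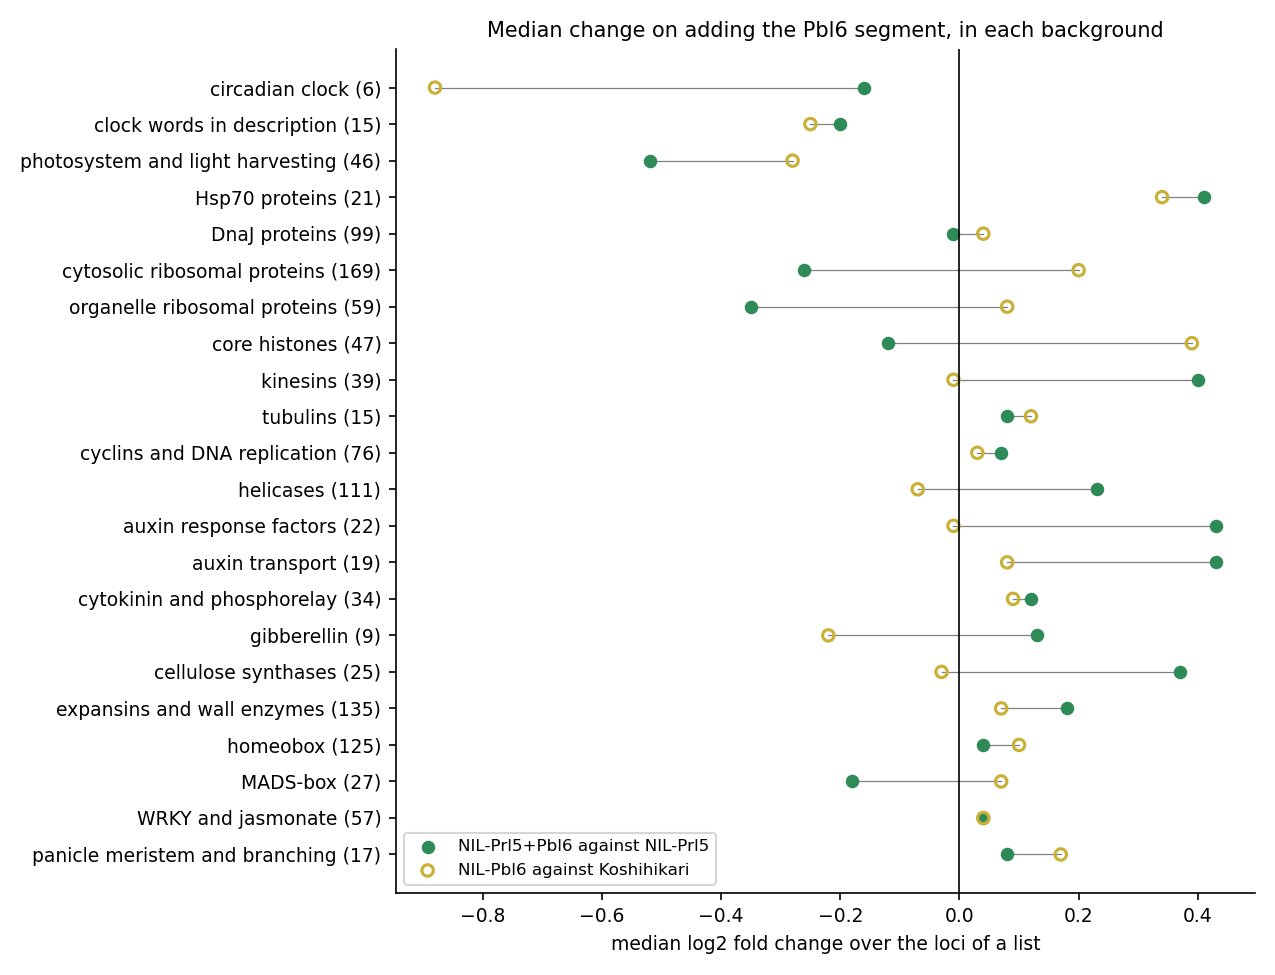
Median log2 fold change over the loci of each gene group (horizontal axis) for NIL-Prl5+Pbl6 against NIL-Prl5 (filled) and NIL-Pbl6 against Koshihikari (open), with the number of loci in brackets. Hsp70 proteins lie at 0.41 and 0.34 and the photosystem group at -0.52 and -0.28, while cytosolic ribosomal proteins lie at -0.26 and 0.20 and kinesins at 0.40 and -0.01.

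The difference between the 2 backgrounds was tested by an interaction term, fitted over the 12 libraries together. It passed for 1243 transcripts (3.93%) and 1010 loci (3.95%). Of the transcripts, 657 had a more positive effect where Prl5 was present and 586 a more negative one. This number rested on single libraries. It was 7579 without Koshihikari replicate 2, 5233 without NIL-Prl5 replicate 2, 523 without NIL-Prl5+Pbl6 replicate 1 and 59 without NIL-Pbl6 replicate 2. It was between 7 and 15 without any of Koshihikari replicates 1 and 3 (10 and 13), NIL-Prl5 replicates 1 and 3 (12 and 15), NIL-Pbl6 replicates 1 and 3 (7 and 8) and NIL-Prl5+Pbl6 replicate 3 (13). Of the kinesins 1 passed, of the auxin response factors 2 and of the cytosolic ribosomal proteins 16, so that for most of their members the difference between backgrounds was not resolved.

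Among the transcripts named here, the interaction held with each of the 12 libraries left out only for GIGANTEA (Os01t0182600-03). It fell by 3.60 on the log2 scale without Prl5, from 187, 161 and 223 cpm in Koshihikari to 15.1, 18.5 and 13.6 cpm in NIL-Pbl6. The fall with Prl5, by 1.88, was smaller by an interaction of 1.72 (adjusted p = 0.000307, and at most 0.00376 with a library left out). The NIL-Prl5+Pbl6 libraries, at 50.2 to 56.0 cpm, thus lay between NIL-Pbl6 and the lines without the Pbl6 segment. PRR73 (Os03t0284100-01) fell by 1.26 on the log2 scale without Prl5 (adjusted p = 0.000308), and its interaction of 1.06 (adjusted p = 0.0309) passed in 5 of the 12 fits with a library left out.

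Changed loci were spread over the genome. Between 20.4% (chromosome 11) and 27.1% (chromosome 2) of the loci tested on a chromosome passed, with 23% on chromosome 6, which carries APO1, and 26.3% on chromosome 5, which carries GA20ox4. Among APO1 and the 25 tested loci on each side of it, 51 in all, 4 were higher and 13 lower (33.3%), and their median log2 fold change was -0.10. Of these, 6 changed in the same direction in NIL-Pbl6 against Koshihikari.

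On chromosome 5 some transcripts with at least 50 counts in every Koshihikari and NIL-Pbl6 library had at most 3 in every library of a line with the Prl5 segment. There were 7 in NIL-Prl5 and 6 in NIL-Prl5+Pbl6, all on chromosome 5, with 4 in both. The libraries of a line were not alike here. Os05t0390932-01 had 0 counts in each NIL-Prl5 library and 0, 62 and 32 in NIL-Prl5+Pbl6. Os05t0448700-01 had 39, 1 and 0 counts in NIL-Prl5 and 0 in each NIL-Prl5+Pbl6 library. Os05t0507400-01 had 123, 102 and 222 counts in NIL-Prl5 and 70, 0 and 1 in NIL-Prl5+Pbl6. Thus NIL-Prl5 and NIL-Prl5+Pbl6, and libraries of 1 line, also differed on chromosome 5 in which transcripts were detected. NIL-Pbl6 differed there from Koshihikari as well. Os05t0501001-01 had 0 counts in each Koshihikari library, 185, 85 and 68 in NIL-Pbl6 and 30, 0 and 0 in NIL-Prl5+Pbl6. The part of these differences in the results was not tested.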

How the data were processed

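The authors deposited 1 table of raw read counts per Rice Annotation Project transcript, not normalized, beside each transcript's description. The submitters' processing notes name bcl2fastq, Bowtie and the genome build IRGSP 1.0. Strand use and the handling of reads with several matches are not given in the sources used here, so reads shared by paralogs, overlapping or antisense genes could not be separated. The study's methods name edgeR and a P-value of 0.05.

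TMM factors of edgeR 4.0.16 in R 4.3.3 were taken over the 12 libraries to give cpm. Transcripts kept by filterByExpr (count minimum 10, total 15), 31643 of 40722, were tested two-sided with glmQLFit and glmQLFTest on the 6 libraries compared, without covariates. The Benjamini-Hochberg adjustment covered all transcripts tested, and a transcript passed at an adjusted p below 0.05. Fold changes are those edgeR fitted, with a prior count of 0.125. Standard errors were worked back from them, as the size of the log2 fold change over the square root of the test's F statistic. No library of a line duplicated another. Total counts per library were between 16041196 and 31760529, at which 3 counts are worth between 0.0945 and 0.187 cpm. The tests were tested on simulated data.

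Gene groups were made from loci known for a process or from words in the descriptions, a locus being a member if any of its transcripts matched, with the transcript of highest mean count for each locus, and are described by counts and medians with no group test. The comparison, its gene groups and the genes named were chosen with earlier results of these data known. To a first set of groups, narrower or further groups were added. Added were kinesins, tubulins, helicases, organelle ribosomal proteins, Hsp70, DnaJ and small heat shock proteins, cellulose synthases and polygalacturonases. So were auxin response factors, auxin transport, flavin monooxygenases, cytokinin histidine kinases, and the clock-word, B-box, MCM and thiamine groups. Their shares describe these data and test nothing. Named are APO1, GA20ox4, members of the groups made from loci, up to 4 changed members of each group made from words, and the 10 largest increases and 10 largest decreases among transcripts that did not overlap and averaged 50 counts or more in the higher line. Some transcripts the rule names are not reported here. Another 21 transcripts were added after their values were seen.

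Alternatives were DESeq2's size factors, DESeq2 1.42.0, edgeR's exact test, no filter and a stricter filter (10 counts or more in all 6 libraries). Further ones were all 12 libraries in a single fit, counts summed by locus, the replicate number as a block and each library left out. The other background, NIL-Pbl6 against Koshihikari, was also compared. For the interaction and the other background, alternatives were chosen after seeing the data. Promoter, transcript and protein sequences were not used here.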

Additional observations from a re-analysis of the deposited data

Results flagged for a closer look

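The effect of the Pbl6 segment differed between the backgrounds with and without Prl5, by the interaction in edgeR's quasi-likelihood fit, for 1243 transcripts at an adjusted p below 0.05. Among the transcripts named, it passed with each library left out only for GIGANTEA (Os01t0182600-03), where it was 1.72 on the log2 scale, a smaller fall with Prl5 than without. The others passed in only 2 to 5 of the 12 fits with a library left out, and for them the difference is not firm.

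Positive interactions, on the log2 scale, were 1.06 for PRR73 (Os03t0284100-01), 1.26 for a histidine kinase (Os10t0362300-01), 2.91 for Os06t0133400-01, 1.01 for an auxin response factor (Os06t0196700-01), 1.11 for a kinesin (Os12t0590500-00) and 0.77 for a CDT1-like factor (Os04t0185100-01). They were 0.70, 1.13 and 0.83 for cellulose synthases (Os05t0176100-05, Os07t0252400-01 and Os08t0160500-01), 0.88 for the Mi-2-like remodeller (Os07t0497000-01) and 0.78 for a pollen-specific NTP303-like transcript (Os06t0678800-01). Negative interactions were -1.16 for the photosystem II 5 kD protein (Os02t0581100-01), -0.84 and -0.78 for the ribosomal proteins L36-1 and L31 (Os05t0459900-01 and Os08t0505300-00), and -0.50 for MADS18 (Os07t0605200-01).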

How the results depend on the processing

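The number of transcripts that changed between NIL-Prl5 and NIL-Prl5+Pbl6, 8021, was between 7466 and 8772 with DESeq2's size factors, DESeq2, edgeR's exact test, either other filter, the 12-library fit and the replicate block (8668), and 6166 loci passed with counts summed by locus. With single libraries left out it was between 3883 and 11158. All 8021 kept their direction, which says little, since 7687 of them had no overlap between the lines. In the other background 2686 passed, 1750 with the replicate block and between 1067 and 7326 with single libraries left out. The interaction, 1243, was 142 with the replicate block, 2877 without the filter and between 7 and 7579 with single libraries left out. The cause of these shifts was not tested. The replicate numbers did not pair the libraries. Same-numbered libraries of the 2 lines had deviations from their line means that correlated at 0.292, 0.0484 and -0.0822. The median of B-box and CONSTANS-like loci changed sign, with a range of -0.24 to 0.06 over single libraries left out, as did medians near 0 (-0.02 to 0.08) of the targeted genes, WRKY and jasmonate, pollen and anther, tubulin and DnaJ loci. Of 168 transcripts followed one by one, 131 passed, and 100 of these passed under every alternative that gave an adjusted p. None of the 131 reversed. That says little too, since many were named because they had changed, and the largest changes were taken only from transcripts without overlap. Depth limits the rare transcripts most, such as APO1 with 18 to 52 reads per library.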
